A study of Mus musculus with 2 samples.

Results

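Fc receptors bind the constant part of antibodies and so tie antibody to the cells that carry them. The 7 genes described here, of the 32285 in the deposited count tables, are Fcgr1, Fcgr3, Fcgr4, Fcgr2b, Fcer1g, Fcer2a and Fcgrt. They were chosen by name as Fc receptor genes, by a rule that uses no measured value but with earlier results of these data known, and all 7 were found in both libraries. The libraries came from hearts of neonatal mice given a myocardial infarction (MI) at P2 and collected at P2MI7dpi, when the mice were 9 days old. One library held sorted CD45+ cells that excluded the dead-cell dye 7-AAD from a pool of 5 WT hearts, and the other the same from a pool of 5 Lyve1 KO hearts. The strain background of these pools is not given in the sources used here. With 1 library per genotype there is no replicate library, so no test of genotype was possible, and every interval given covers counting error only.

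In the mouse, Fcgr1, Fcgr3 and Fcgr4 encode the activating receptors for IgG, which have no signalling motif of their own and pair with the gamma chain encoded by Fcer1g. Fcgr2b encodes the inhibitory IgG receptor, which carries an inhibitory motif in its own tail and recruits the phosphatase SHIP1. Fcer2a encodes CD23, the low-affinity receptor for IgE, and Fcgrt encodes the heavy chain of FcRn, which pairs with beta-2 microglobulin and returns IgG from endosomes to the surface. In macrophages the balance of activating against inhibitory receptors sets the answer to immune complexes, and in B cells Fcgr2b restrains the antigen receptor.

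In the mm10/GRCm38 build, 4 of the genes lie in 275.7 kb of chromosome 1. They are Fcgr2b at chr1:170958617-170976547, Fcgr4 at chr1:171018920-171029761, Fcgr3 at chr1:171051174-171064935 and Fcer1g at chr1:171229572-171234365, all on the minus strand except Fcgr4. Fcgr1 lies on the minus strand at chr3:96282909-96293969, Fcer2a on the minus strand at chr8:3681737-3694175 and Fcgrt on the minus strand at chr7:45092990-45103851. The deleted gene, Lyve1, is also on chromosome 7, 65746.8 kb away from Fcgrt. Transcripts of Fcgr2b and Fcgr3 share a run of 129 bases, and 1.67% of the 90-base stretches of Fcgr2b and 3.93% of those of Fcgr3 occur in the other gene. Over the first 500 bases of the transcripts these shares were 1.48% and 5.11%, and the libraries were made with a 5′ kit. Reads from shared stretches leave the split between these genes uncertain. No such stretch was shared with Fcgr1 or Fcgr4.

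The activating receptors are shown first by sequence, because the DNA just before their starts holds a short element in common. The 100 bases before the RefSeq start (GRCm38.p6) are printed 5′ to 3′ for Fcgr1 (chr3:96293970-96294069, minus strand), Fcgr3 (chr1:171059395-171059494, minus strand) and Fcgr4 (chr1:171018826-171018925, plus strand). The Fcgr3 start used is one of 2 in the table, and it and the whole stretch printed lie inside the gene as given above. The last bases of the Fcgr4 stretch also lie inside the gene as given above. Capitals mark the letters TTCCTC. The reverse complement, GAGGAA, holds GGAA, the core of sites for ETS factors such as PU.1, a regulator of myeloid genes.
Fcgr1: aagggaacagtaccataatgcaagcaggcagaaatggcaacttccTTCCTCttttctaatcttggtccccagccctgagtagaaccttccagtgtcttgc
Fcgr3: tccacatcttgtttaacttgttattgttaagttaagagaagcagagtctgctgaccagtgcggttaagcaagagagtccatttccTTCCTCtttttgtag
Fcgr4: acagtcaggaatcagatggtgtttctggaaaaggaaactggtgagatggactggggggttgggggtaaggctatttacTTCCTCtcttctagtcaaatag
The first base of the element lay 55 bases before the start in Fcgr1, 15 in Fcgr3 and 22 in Fcgr4. Over 250 bases and both strands it was absent before Fcgr2b, Fcer1g, Fcer2a and Fcgrt, and 23.3% of 32851 promoter windows hold it. The shorter core GGAA does occur before each of these genes, so they lack the longer element only. In Fcgr1 and Fcgr3 the longer element sits inside a shared run of 14 bases, TTCCTTCCTCTTTT. That run occurred in 3 of the 32851 windows, 1 each of Fcgr1, Fcgr3 and Entpd1. That run was picked as the longest one shared by the Fcgr1 and Fcgr3 windows, so its presence in both was fixed in advance. The genes printed were shown because they hold TTCCTC, so its presence in them is not a result either. The contrast with the other genes is a description only. All 7 genes were matched in the RefSeq table, and a match is a description of letters, not of binding.

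After limits on quality, 4187 WT and 3391 KO cells were kept, with 63757770 and 57233748 unique molecular identifiers (UMIs, counted RNA molecules) and medians of 11106 and 12856 per cell. Ptprc, which encodes CD45, had a UMI in 86.7% of WT and 90.1% of KO cells. Clusters were built without the Fc receptor genes, and 16 classes were named from marker genes. Cells were also called male from Y-linked transcripts or female from Xist, since the pools mixed hearts, and ratios within each sex are given beside the pooled ones where they bear on them. In WT 1982 cells were called male and 1038 female, and in KO 1435 and 984. The mix differed between the libraries in some classes, such as Olfml3 Gpr34 cells, with 451 male and 155 female in WT and 124 and 106 in KO. No sex was called for 1097 WT and 931 KO cells with neither, and 70 and 41 with both. Some groups were small, such as female neutrophil-like cells (26 WT and 35 KO) and female Prg4 Saa3 cells (15 and 11). Every marker of the neutrophil, B cell, NK cell and monocyte lists was detected in its own class in both libraries. In all, 1238 WT and 850 KO cells stayed unnamed and enter no class, among them a cluster of 35 WT and 30 KO cells led by Cd209a, Cd209d and H2-Ab1 that was nearest to the dendritic cell list. Lyve1 was at 1576 counts per 1000000 UMIs of the class (CPM) in WT and 33.9 in KO Folr2 Cd163 macrophage-like cells, and its level over all kept cells was 246.7 in WT and 13.1 in KO. The remaining KO signal was not limited to macrophages and reached 51.6 CPM in ILC2-like cells, where WT had 1.07. Across 9 cell barcodes found in both libraries, 3 were kept in both. The unnamed cells, 29.6% of WT and 25.1% of KO cells kept, also held Fc receptor UMIs that enter no class. Fcgr3 was at 310.0 CPM in WT and 135.0 in KO there, Fcer1g at 1152 and 655.8, and Fcgr1 at 84.4 and 47.7. Fcgr2b was at 160.6 and 163.0. They include a cluster of 31 WT and 8 KO cells led by Ccnb2 and Birc5, nearest to the Olfml3 Gpr34 list.

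**Figure D1:**
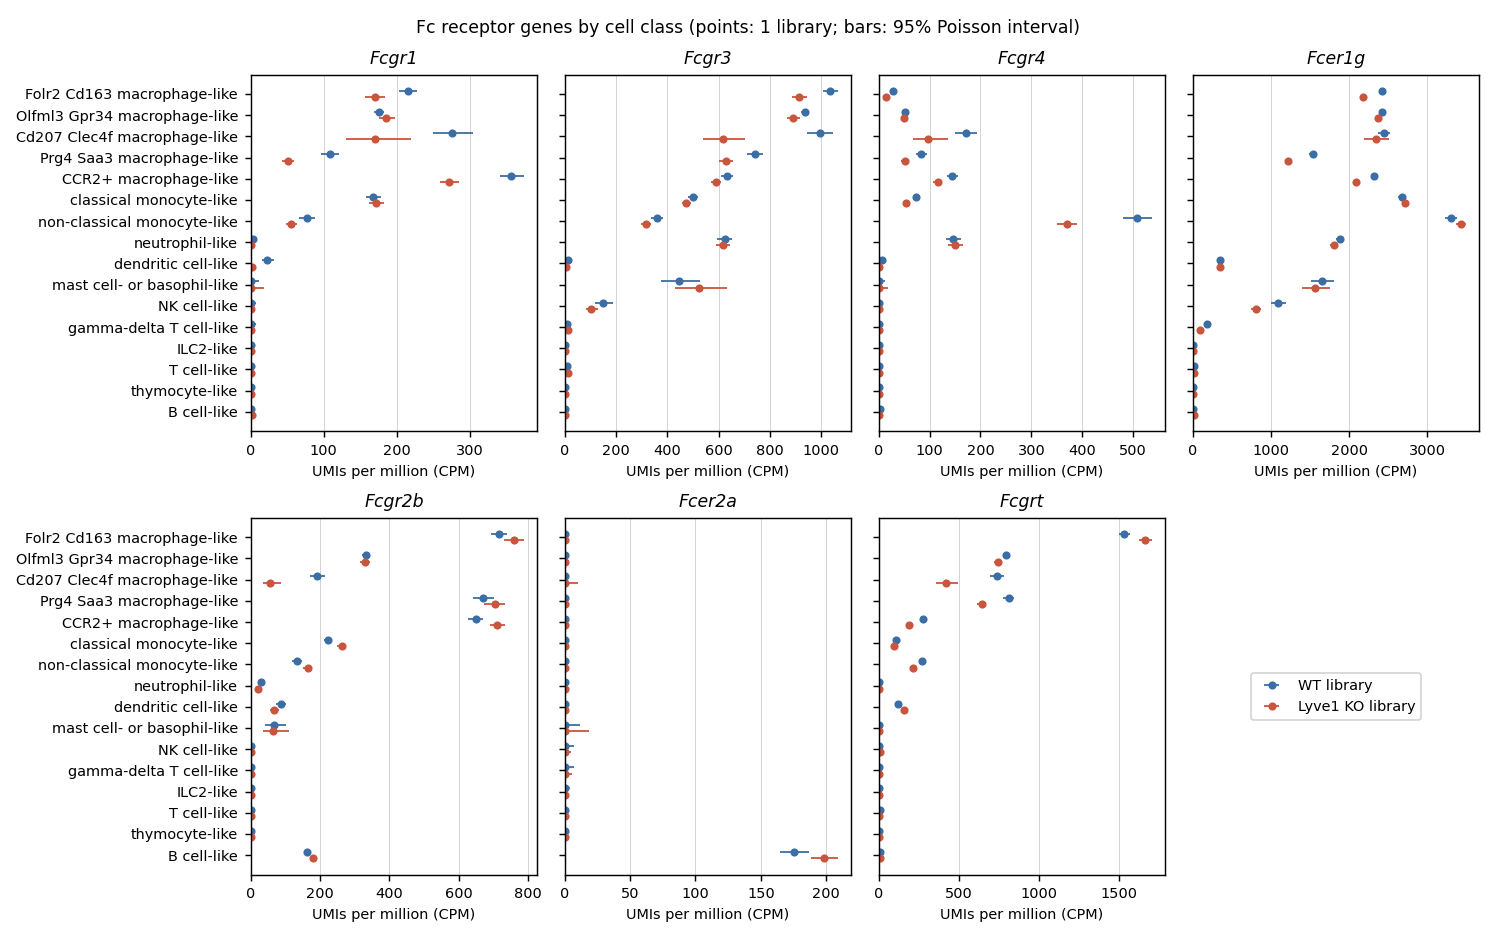
Level of each Fc receptor gene (horizontal axis, CPM, from 0, with a scale of its own per panel) in 16 cell classes (vertical axis). Points are the WT (blue) and Lyve1 KO (red) libraries and bars are 95% Poisson intervals of the count. Each gene has its own set of classes, and the highest class is the same in both libraries for all 7 genes.

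For all 7 genes the class with the highest level was the same in both libraries. Fcgr1 led in CCR2+ macrophage-like cells, Fcgr2b, Fcgr3 and Fcgrt in Folr2 Cd163 macrophage-like cells, Fcgr4 and Fcer1g in non-classical monocyte-like cells and Fcer2a in B cell-like cells. Not every leader stood apart, since for Fcgr1 and Fcgr3 its range over the libraries overlapped with that of the next class. The leading class of Fcgr1, Fcgr2b and Fcgr3 also changed under some of the alternatives run. Below the leaders, neighbouring classes often had ranges that overlapped, and these are named below. Levels are set side by side between classes of 1 gene only, never between genes.

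Fcgr1 encodes the high-affinity IgG receptor CD64, a textbook marker that sets macrophages and monocytes apart from dendritic cells. It was at 356.7 CPM in WT and 271.7 in KO CCR2+ macrophage-like cells, 275.8 and 170.4 in the Cd207 Clec4f class, and 215.1 and 169.9 in the Folr2 Cd163 class. Olfml3 Gpr34 macrophage-like cells had 175.2 and 185.8 CPM, and classical monocyte-like cells 168.0 and 171.5. Each of the first 4 classes had a range over the libraries that overlapped with that of its neighbour, the leading CCR2+ class included. The level was lower in Prg4 Saa3 macrophage-like cells (108.2 and 51.1 CPM) and in non-classical monocyte-like cells (76.4 and 55.0), a pair that overlapped. Neutrophil-like cells held 10 Fcgr1 UMIs in WT and none in 336 KO cells, which allows up to 0.99 CPM. No UMI was seen in NK cell-like, ILC2-like, gamma-delta T cell-like, mast cell- or basophil-like or thymocyte-like cells of either library. In WT dendritic cell-like cells the 22.7 CPM came from 2 of 62 cells, 1 of which held 74.3% of the UMIs.

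Fcgr3 encodes CD16, the low-affinity activating receptor. It was present in macrophage, monocyte, neutrophil, mast cell and NK classes. It was at 1036 and 914.8 CPM in WT and KO Folr2 Cd163 macrophage-like cells, at 936.4 and 891.5 in the Olfml3 Gpr34 class and at 993.4 and 617.3 in the Cd207 Clec4f class, 3 ranges that overlap. The Prg4 Saa3 class had 741.7 and 627.8 CPM and the CCR2+ class 632.2 and 588.5. Neutrophil-like cells stood at the same height as CCR2+ macrophage-like cells, with 623.7 and 615.4 CPM. Classical monocyte-like cells (499.5 and 473.8) overlapped with mast cell- or basophil-like cells (447.1 and 523.9), and non-classical monocyte-like cells were lower (360.3 and 315.8).

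NK cells use CD16 as their receptor for antibody-coated targets, and NK cell-like cells had 149.2 Fcgr3 CPM in WT and 103.6 in KO. The other IgG receptors had no UMI in NK cell-like cells, 43 per library. After each cell was thinned to 4200 UMIs, which left out 7 WT and no KO cells, a Fcgr3 UMI was present in 33.3% of WT and 39.5% of KO NK cell-like cells (53.5% and 58.1% before thinning). In T cell-like cells, taken as a measure of free RNA, the thinned shares were 3.23% and 4.75%, and the medians before thinning were 9401 and 12394 UMIs against 10936 and 15401 in NK cell-like cells. The summed NK cell markers were at 508.4 and 442.2 CPM in T cell-like cells against 5166 and 4793 in NK cell-like cells. The Fcgr3 level of T cell-like cells was 9.81 and 13.01 CPM, above B cell-like (1.402 and 1.77), thymocyte-like (1.33 and 0.627) and ILC2-like cells (1.07 and 0).

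Fcgr4 encodes the mouse receptor with a preference for IgG2 subclasses. It was at 507.9 CPM in WT and 369.8 in KO non-classical monocyte-like cells. Neutrophil-like cells had 146.1 and 150.2 CPM and the CCR2+ class 144.4 and 115.6, and the range of the Cd207 Clec4f class (171.4 and 97.8) overlapped with both. Classical monocyte-like cells had 73.8 and 53.6 CPM. Of the 5 macrophage classes the Folr2 Cd163 class, highest for Fcgr3, was lowest for Fcgr4 with 28.0 and 13.9 CPM, and 1 cell held 27.3% of the WT UMIs there. At 4200 UMIs per cell, 75.1% of WT and 69.0% of KO non-classical monocyte-like cells had a Fcgr4 UMI, against 21.1% and 17.1% of classical monocyte-like cells. T cell-like cells held 1 Fcgr4 UMI in WT and none in KO, which allows up to 0.697 CPM.

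Fcer1g, the shared gamma chain, was broad. Non-classical monocyte-like cells had 3301 CPM in WT and 3431 in KO, and classical monocyte-like cells 2672 and 2710. The Olfml3 Gpr34 (2426 and 2368), Cd207 Clec4f (2444 and 2349) and Folr2 Cd163 classes (2422 and 2183) had ranges that overlapped, and the CCR2+ class (2322 and 2092) overlapped with the last of these alone, while Prg4 Saa3 macrophage-like cells were lower (1533 and 1217). Neutrophil-like cells had 1884 and 1804 CPM and mast cell- or basophil-like cells 1653 and 1567. The gamma chain is also part of the high-affinity IgE receptor, and the genes of its other chains, Fcer1a and Ms4a2, were found in mast cell- or basophil-like cells (595.1 and 800.6 CPM for Fcer1a, 491.2 and 548.6 for Ms4a2), with at most 0.263 CPM in any other class. NK cell-like cells had 1093 and 807.9 Fcer1g CPM. Gamma-delta T cell-like cells had 177.1 and 94.0 CPM, which came from 8 of 46 WT and 5 of 46 KO cells. T cell-like cells had 16.2 and 15.1 CPM, and B cell-like, thymocyte-like and ILC2-like cells stayed at or below 9.81.

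Fcgr2b, the inhibitory receptor, was at 716.5 CPM in WT and 759.9 in KO Folr2 Cd163 macrophage-like cells. Prg4 Saa3 cells (670.9 and 704.5) and CCR2+ macrophage-like cells (649.6 and 712.0) overlapped with each other just below, and Olfml3 Gpr34 cells were lower (331.5 and 330.6). Classical monocyte-like cells had 222.2 and 262.9 CPM and non-classical monocyte-like cells 133.0 and 164.3. B cell-like cells had 162.8 and 179.8 CPM, a range that overlapped with that of non-classical monocytes. Neutrophil-like cells had 31.1 and 20.5 CPM. T cell-like cells held 1 and 3 UMIs in all, and NK cell-like cells held none, which allows up to 5.81 CPM in WT and 4.20 in KO.

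The share of Fcgr2b among the UMIs of the 4 IgG receptor genes separated the classes. This share sets counts of different genes against each other, and Fcgr2b and Fcgr3 have some sequence in common. It is read only between classes and libraries. It was 97.3% in WT and 97.5% in KO B cell-like cells, where Fcgr1, Fcgr3 and Fcgr4 had at most 13 UMIs each per library. It was between 35.9% and 49.1% in the Folr2 Cd163, CCR2+ and Prg4 Saa3 macrophage classes, and between 22.2% and 27.3% in Olfml3 Gpr34 and classical monocyte-like cells. Non-classical monocyte-like cells had 12.3% and 18.2%, and neutrophil-like cells 3.86% and 2.60%.

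In 6 of 11 classes the share was higher in KO with 95% Clopper-Pearson intervals that did not overlap. In Prg4 Saa3 cells it was 41.8% (40.4 to 43.3) in WT and 49.1% (47.6 to 50.6) in KO. In CCR2+ cells it was 36.4% (35.5 to 37.4) and 42.2% (41.2 to 43.2), and in Folr2 Cd163 cells 35.9% (35.0 to 36.9) and 40.9% (39.7 to 42.1). Classical monocyte-like cells went from 23.1% to 27.3% and non-classical from 12.3% to 18.2%. In dendritic cell-like cells it was 66.8% of 199 UMIs in WT and 90.7% of 107 in KO, where 1 WT cell held 74.3% of the Fcgr1 UMIs and 65.0% of the Fcgr3 UMIs were also in 1 cell. The Cd207 Clec4f class went the other way, from 11.8% (10.5 to 13.1) to 5.94% (3.66 to 9.02), with 16 KO cells. Olfml3 Gpr34 cells had 22.2% and 22.7%, with intervals that overlapped. Shares by sex are not given here, but the Fcgr2b level did not rise in both sexes in every class with a higher share. Its log2 ratio of KO over WT was -0.10 among male and 0.49 among female Prg4 Saa3 cells. In Folr2 Cd163 cells it was -0.06 and 0.27, and in CCR2+ cells 0.12 and 0.14. Intervals here cover the counting of UMIs and not the difference between pools, so the number of classes is a description of these libraries.

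**Figure D2:**
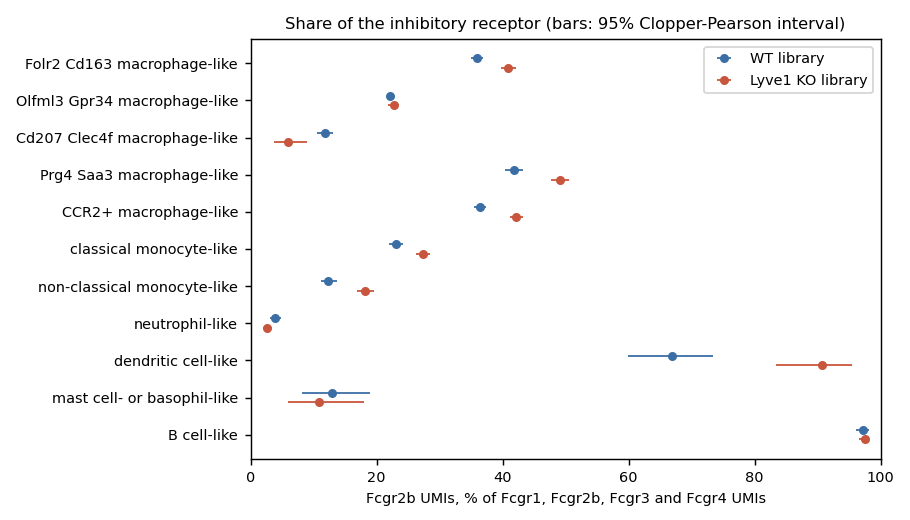
Fcgr2b UMIs as a percent of the UMIs of Fcgr1, Fcgr2b, Fcgr3 and Fcgr4 (horizontal axis) in the 11 classes with at least 100 such UMIs in each library (vertical axis). Points are the WT (blue) and Lyve1 KO (red) libraries and bars are 95% Clopper-Pearson intervals. B cell-like cells sit near 97%, neutrophil-like cells near 3%, and KO lies to the right of WT, with intervals apart, in 6 classes.

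Fcgrt was led by resident macrophages. Folr2 Cd163 cells had 1532 CPM in WT and 1663 in KO, above every other class. The Olfml3 Gpr34 (791.7 and 743.3), Prg4 Saa3 (810.5 and 642.9) and Cd207 Clec4f (736.7 and 419.0) classes came next, where Prg4 Saa3 overlapped with each of the other two and these did not overlap. CCR2+ macrophage-like cells (274.5 and 190.3) and non-classical monocyte-like cells (272.0 and 212.1) were at a like level, and dendritic cell-like (120.1 and 158.6) and classical monocyte-like cells (110.1 and 92.5) were lower. Neutrophil-like cells held 3 and 4 UMIs in all, and B cell-like cells had 6.14 and 5.99 CPM. An antisense gene over Fcgrt, Gm45669, had 239 and 181 UMIs of its own in the whole libraries against 29559 and 17547 of Fcgrt. The partner of FcRn, B2m, was highest in non-classical monocyte-like cells (4958 and 4591 CPM), with 4609 and 3962 in Folr2 Cd163 cells.

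Fcer2a was found in B cell-like cells, at 175.5 CPM in WT and 198.3 in KO. In each of the other 15 classes it had at most 1 UMI per library. It was uneven within the B cell-like class. In the cluster led by Vpreb3, which also had Ighd among its leading genes, it was at 347.1 CPM in 217 WT cells and 402.0 in 275 KO cells. In the cluster led by Ms4a1 and Zbtb32 it was at 31.2 CPM in 107 WT cells and 28.7 in 130 KO cells. A shallow cluster, led by Gm26917 and Ebf1 with medians of 3194 and 4746 UMIs, had 301.2 and 232.9 CPM. Fcgr2b ran the other way between the first 2 clusters, with 112.6 and 94.8 CPM in the Vpreb3-led and 213.5 and 251.0 in the Ms4a1-led cluster. Fcer2a was kept out of the clustering but is itself among the leading genes of the Vpreb3-led cluster, so the contrast is a description of it.

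Neutrophil-like cells were not uniform either. Their largest cluster, led by Stfa1 and Asprv1 with 250 WT and 265 KO cells, had 710.3 and 706.8 Fcgr3 CPM, 187.5 and 176.9 Fcgr4 CPM and 9.29 and 7.25 Fcgr2b CPM. The cluster led by Acod1 and Il1rn, with 79 and 43 cells, had less Fcgr3 (504.0 and 391.2) and Fcgr4 (79.5 and 116.3) and more Fcgr2b (94.99 and 63.45). The cluster led by Ngp and Camp, genes of granule proteins made in immature neutrophils, had 22 and 28 cells, with 425.8 and 430.0 Fcgr3 CPM and 45.0 and 42.9 Fcgr2b CPM. The Fcgr2b share was 1.02% and 0.814% in the first cluster, 13.7% and 11.1% in the second and 8.46% and 7.71% in the third. The values of the first cluster lie outside the 95% intervals of the others in both libraries. The lower Fcgr2b level of the whole class in KO moved with the smaller number of cells in the Acod1-led cluster, and the part of that in the difference was not tested.

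**Figure D3:**
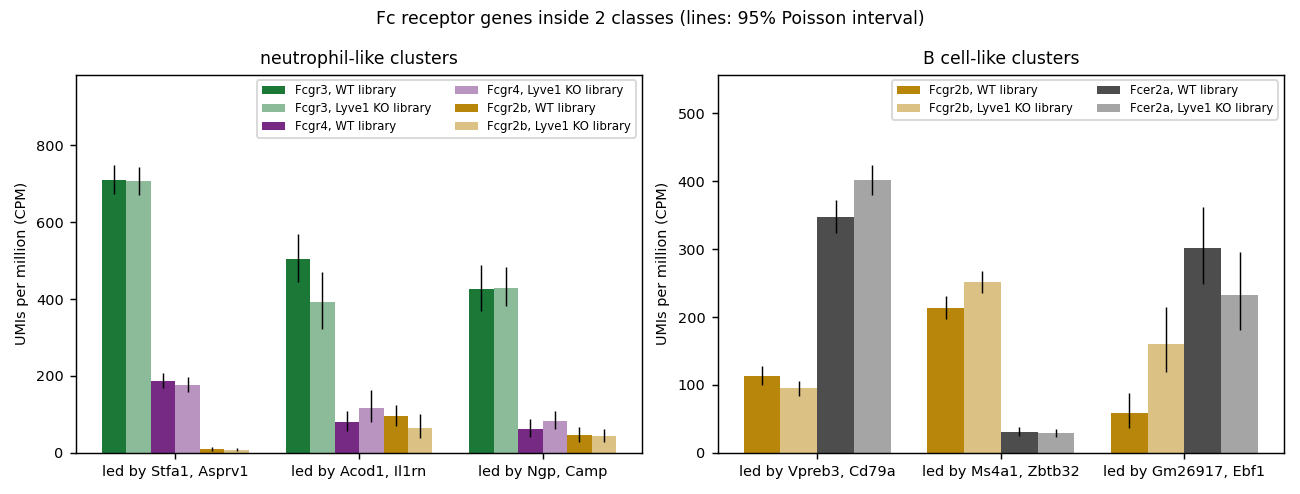
Levels in CPM (vertical axis, from 0) in the clusters of the neutrophil-like class (left, Fcgr3, Fcgr4 and Fcgr2b) and the B cell-like class (right, Fcgr2b and Fcer2a), named by their leading genes outside the Fc receptor lists. Full colours are the WT and pale colours the KO library, and lines are 95% Poisson intervals. Fcgr3 and Fcgr4 are highest in the Stfa1-led neutrophil-like cluster where Fcgr2b is lowest, and Fcer2a is high in the Vpreb3-led and low in the Ms4a1-led B cell-like cluster.

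Monocyte-like and dendritic cell-like clusters added detail. Of the classical monocyte-like clusters, that led by S100a8 had less Fcgr1 (126.8 and 157.9 CPM) and Fcgr4 (42.8 and 34.4) than that led by Ly6c2 and Plac8 (229.3 and 190.0, and 119.8 and 79.5), while Fcgr3 differed less between them (498.6 and 491.1, and 500.7 and 450.5). The non-classical monocyte-like class includes a cluster of 53 WT and 55 KO cells with medians of 1786 and 1475 UMIs, in which Fcgr4 was at 119.4 and 94.7 CPM against 530.2 and 378.6 in the main cluster. Among dendritic cell-like clusters, that led by Siglech had 939.1 and 1105 Fcer1g CPM and no Fcgr1, Fcgr3 or Fcgr4 UMI, with 16 WT and 11 KO cells.

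The genes were then compared between KO and WT. For each gene and class with at least 100 UMIs in all, the log2 ratio of KO over WT was taken after 10 CPM had been added to both, which understates changes of low genes, and a ratio of at least 1 in size was counted. Of 56 pairs of a member and a class, 1 passed, against 0.927% of 88563 pairs over all genes. By direction, 40 of the 56 ratios were below 0, where 54.2% of all pairs were. The counting interval of the fold lay below 1 in 34 and above 1 in 9, against 15.6% and 10.9% of all pairs. Whether an interval leaves out 1 depends on the number of UMIs as well as on the fold. Fcer1g in Olfml3 Gpr34 cells, with 36259 WT UMIs, had an interval below 1 at a fold of 0.976. All pairs were not matched to the members in UMIs, so their shares are not a like background for the interval counts. The median over the members' pairs was -0.15.

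**Figure D4:**
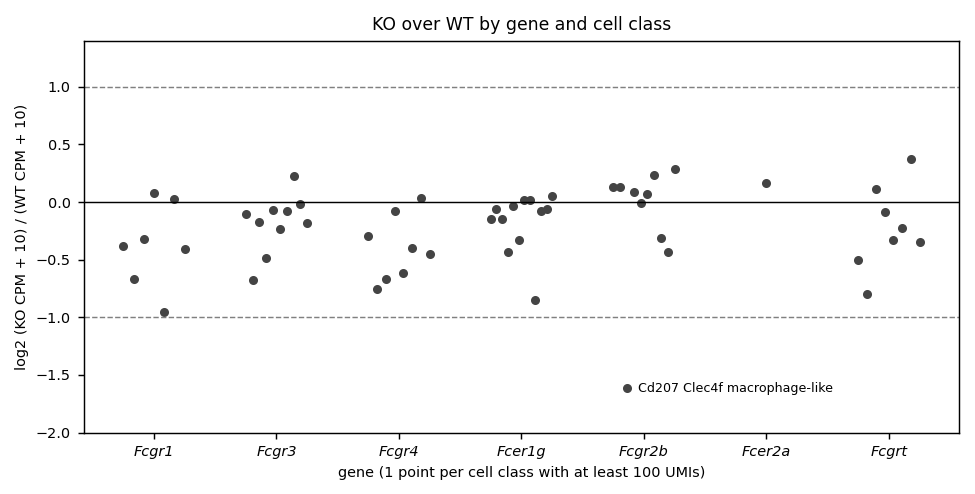
Log2 ratio of KO over WT with 10 CPM added (vertical axis) for each Fc receptor gene (horizontal axis), with 1 point per class that had at least 100 UMIs and dashed lines at ratios of 1 and -1. Points for Fcgr1, Fcgr3 and Fcgr4 lie mostly below 0, those for Fcgr2b lie above 0 in 6 of 10 classes (5 with the mean of per-cell CPM), and 1 point, Fcgr2b in Cd207 Clec4f cells, is past the dashed line.

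The pair past the fold was Fcgr2b in Cd207 Clec4f macrophage-like cells, at 191.9 CPM in WT and 55.9 in KO (log2 ratio -1.62). In this class 3.28% of 3228 genes passed. It rested on 71 WT and 16 KO cells, and 1 WT cell held 42.7% and 1 KO cell 60.0% of the UMIs. Without those cells the ratio was -1.88, and it was 0.35 among male cells and -2.19 among female cells, with 6 male and 9 female KO cells. The KO cell with the most Fcgr2b UMIs was male, so most of the 14 Fcgr2b UMIs of male KO cells came from 1 cell, and the WT cell with the most had no sex call. The summed Folr2 Cd163 marker list was at 1510 CPM in WT and 570 in KO in the same class. The macrophage list (21000 and 18770) and the list of the class itself (2616 and 2371) were also lower in KO. Other lists were higher in KO, such as the CCR2+ macrophage (3787 and 5606), Olfml3 Gpr34 (1458 and 1838) and cycling lists (200.1 and 729.0). The part of these lists in the difference was not tested. Fcgr1, Fcgr3, Fcgr4 and Fcgrt were each lower in KO there too, with log2 ratios from -0.80 to -0.66, while Fcer1g was at -0.06.

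Fcgr4 was lower in KO in 7 of 8 classes, with counting intervals below 1 in 6 and a median of -0.42. Among male cells 5 of the 8 ratios were below 0, and among female cells 7. Over all genes 54.2% of pairs were below 0, a share to set beside the direction counts of the genes below too. Intervals below 1 were found in 15.6% of all pairs, which were not matched in UMIs. In non-classical monocyte-like cells Fcgr4 was at 507.9 CPM in WT and 369.8 in KO, a fold of 0.728 (0.674 to 0.787). The log2 ratio there was -0.36 among male and -0.67 among female cells. In classical monocyte-like cells the fold was 0.726 (0.627 to 0.839), with 0.19 on the log2 scale among male and -1.004 among female cells, so the sexes went opposite ways there. In CCR2+ cells the fold was 0.8004 (0.720 to 0.890), and in Folr2 Cd163 cells 0.498 (0.357 to 0.688), where levels were low and the log2 ratio was -0.10 among male and -1.19 among female cells. Neutrophil-like cells were the exception, with a fold of 1.03 (0.898 to 1.18).

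Fcgr1 was lower in KO in 5 of 7 classes, all 5 with counting intervals below 1. The lowest ratio was in Prg4 Saa3 cells, from 108.2 to 51.1 CPM (log2 ratio -0.95), and CCR2+ cells went from 356.7 to 271.7 (-0.38). Both classes also had less of the 8-gene macrophage list in KO, 16050 against 11880 CPM in Prg4 Saa3 and 10040 against 7309 in CCR2+ cells. The 10-gene CCR2+ macrophage list was higher in KO, at 10520 in WT and 12930 in KO Prg4 Saa3 cells and at 19140 and 23870 in CCR2+ cells. This list includes H2-Aa, H2-Ab1 and Cd74, and its sum is not particular to CCR2+ macrophages. It was at 34680 and 34410 in dendritic cell-like cells and at 14550 and 14850 in B cell-like cells. The 8-gene classical monocyte list, all of it detected, was at 621.7 CPM in WT and 1910 in KO Prg4 Saa3 cells, and at 2053 and 1979 in CCR2+ cells. The part of these lists in the Fcgr1 differences was not tested. The log2 ratio of Fcgr1 was -0.57 among male and -1.06 among female Prg4 Saa3 cells, and -0.14 and -0.48 in CCR2+ cells. Fcgr1 also differed between the sexes within a library. In WT it was at 72.8 CPM in male and 182.0 in female Prg4 Saa3 cells, and at 264.5 and 472.7 in CCR2+ cells. In KO the values were 45.6 and 82.3, and 238.3 and 335.7. The part of the mix of sexes in the pooled folds was not tested. Olfml3 Gpr34 cells and classical monocyte-like cells had Fcgr1 folds of 1.06 (0.988 to 1.14) and 1.02 (0.935 to 1.11), and in the latter the log2 ratio was 0.38 among male and -0.32 among female cells.

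Fcgr3 and Fcer1g moved little at the median. Fcgr3 was lower in KO in 9 of 10 classes, 8 of them with intervals below 1, but the median log2 ratio was only -0.14. In Olfml3 Gpr34 cells its fold was 0.952 (0.923 to 0.982), and in Prg4 Saa3 cells 0.846 (0.795 to 0.901). Fcer1g had a median of -0.07 over 12 classes, with intervals below 1 in 7 and above 1 in 1. In Prg4 Saa3 cells its fold was 0.794 (0.760 to 0.830), with log2 ratios of -0.33 among male and -0.16 among female cells. Its lowest ratio, -0.85 in gamma-delta T cell-like cells, rests on the few cells given above. In NK cell-like cells both genes had a lower CPM in KO, with folds of 0.694 (0.498 to 0.968) for Fcgr3 and 0.739 (0.657 to 0.832) for Fcer1g. The Fcgr3 fold there rested on 77 WT and 74 KO UMIs. The share of NK cell-like cells with a Fcgr3 UMI, given above, was higher in KO both before and after thinning.

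Fcgr2b was higher in KO in 6 of 10 classes, 5 of them with intervals above 1, and in 5 of 10 with the mean of per-cell CPM or among male cells. In 2 classes the interval lay below 1, the Cd207 Clec4f class given above and neutrophil-like cells, with a fold of 0.659 (0.468 to 0.923) and log2 ratios of -0.13 among male and -0.97 among female cells. The female neutrophil-like ratio rests on 15 WT and 9 KO UMIs. The highest ratios were in non-classical (fold 1.24, 1.08 to 1.42) and classical monocyte-like cells (1.18, 1.10 to 1.27), and both kept their direction among male and among female cells, but the mean of per-cell CPM gave -0.05 on the log2 scale in non-classical monocyte-like cells. In CCR2+ cells the fold was 1.10 (1.05 to 1.15), in B cell-like cells 1.10 (1.01 to 1.202) and in Folr2 Cd163 cells 1.06 (1.01 to 1.11), where the log2 ratio was -0.06 among male cells. The B cell-like clusters did not all rise, with 112.6 CPM in WT and 94.8 in KO in the Vpreb3-led cluster. The Ms4a1-led cluster had 213.5 and 251.0, and the shallow cluster 58.1 and 161.0. By sex, the B cell-like log2 ratio was 0.06 among male and 0.81 among female cells, the latter with 99 WT UMIs. Olfml3 Gpr34 cells had a fold of 0.997 (0.947 to 1.05). Fcer2a in B cell-like cells had a fold of 1.13 (1.04 to 1.23), with log2 ratios of 0.23 among male and -0.31 among female cells.

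Fcgrt was lower in KO in 6 of 8 classes. The fold was 0.693 (0.640 to 0.751) in CCR2+ cells, 0.780 (0.703 to 0.866) in non-classical monocyte-like cells and 0.793 (0.747 to 0.843) in Prg4 Saa3 cells. It was higher in Folr2 Cd163 cells, the class with the most Lyve1, with 1.09 (1.05 to 1.12), and in dendritic cell-like cells, with 1.32 (1.08 to 1.61). In CCR2+ cells the summed Folr2 Cd163 marker list was at 862.9 CPM in WT and 452.5 in KO beside this, and its part was not tested.

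The other genes of the pathway were a list of 39, all in the tables, of which 31 had enough UMIs in at least 1 class. Of 248 gene and class pairs 1 passed the fold, lower in KO, against 0.927% of all pairs (1.35% of 6309 genes in the class concerned). It was Fcrls, an Fc receptor-like gene of resident macrophages, in Prg4 Saa3 cells, at 38.4 CPM in WT and 4.59 in KO (log2 ratio -1.73). Fcrls was at 1050 and 1027 CPM in Olfml3 Gpr34 cells, the class in which it was highest. Beside the difference in Prg4 Saa3 cells, the summed Olfml3 Gpr34 marker list there was at 339.6 CPM in WT and 263.1 in KO, and its part was not tested. None of 139 pairs of the 13 activating signalling genes and none of 62 pairs of the 5 inhibitory ones passed, with medians of 0.05 and 0.02. At the share over all genes and classes given above, counts of this size are near the background.

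Among the other Fc receptor genes, B cell-like cells led for Fcrla (403.8 and 451.3 CPM), Fcmr, the IgM receptor (283.8 and 330.2), Fcrl1 (119.5 and 103.4) and Fcrl5 (94.3 and 69.7). Tyrobp, the adaptor DAP12, was highest in neutrophil-like cells (5090 and 4754). Non-classical monocyte-like cells led for the kinases Lyn (1207 and 1160) and Fgr (692.5 and 778.5) and for the phosphatase gene Ptpn6 (499.7 and 537.9). Inpp5d, which encodes SHIP1, was at 382.8 and 339.0 CPM in B cell-like cells and at 325.8 and 367.2 in dendritic cell-like cells. The Cd207 Clec4f class had 301.8 and 332.4, and non-classical monocyte-like cells 287.9 and 314.2. Cd247, the zeta chain, a partner of CD16 in human NK cells, was at 147.3 and 173.6 CPM in NK cell-like cells and higher in gamma-delta T cell-like cells (665.0 and 720.0).

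Among the antibody heavy chain genes, Ighm was at 1691 and 1660 CPM and Ighd at 213.7 and 218.4 in B cell-like cells. Of the IgG genes, Ighg3 was at 12.4 and 15.9 CPM in B cell-like cells, while Ighg1, Ighg2b and Ighg2c had 3, 2 and 1 UMIs over all named cells of both libraries and Ighe had none. Ighm UMIs were also present at 181.5 and 213.0 CPM in Olfml3 Gpr34 macrophage-like cells and at 162.2 and 184.7 in T cell-like cells. Dendritic cell-like (184.3 and 199.6), thymocyte-like (152.7 and 197.4) and NK cell-like cells (135.6 and 135.8) had them too, while the Cd207 Clec4f class had 0.683 CPM in WT and none in KO.

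Over the 32 points of 16 classes in both libraries, the genes with the most similar log2 levels were named by Pearson's r, as a description with no test, since the points share libraries and depth. Fcgr1 had Stard9 (0.97) and Trem2 (0.96) among its 5 closest genes, and Fcgrt had Tmem106a (0.97) and Lacc1 (0.97). Fcgr3 was closest to C5ar1 (0.94) and Aoah (0.94) and had Fcer1g among its 5 closest (0.93), and Fcer1g was closest to Tyrobp (0.94) and had Fcgr3 among its own. Fcgr4 was closest to Pilra (0.95) and Cd300ld (0.95), and Fcgr2b had Atp13a2 (0.93) and Rassf4 (0.92) among its 5 closest. For Fcer2a the 5 closest genes, 4 of them immunoglobulin variable segments, all had a coefficient of 1.0. Outside B cell-like cells Fcer2a was almost absent, so this coefficient rests on the B cell-like points. Any gene found in that class alone would come close to it. Between members, Fcgr1 and Fcgrt had 0.89 and Fcgr2b and Fcgrt 0.82, against 0.58 for Fcgr2b and Fcgr4.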

How the data were processed

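Live CD45+ cells of both pools were profiled with a 10x 5′ kit. The authors deposited UMI counts per gene and barcode, made with Cell Ranger 8.0.1 per the submitters' processing notes on mm10/GRCm38 and called as cells, without assignment to hearts. WT held 5713 barcodes and 67968938 UMIs, and KO 5285 and 61555917. Barcodes under 500 genes, under 250 UMIs or over 30% mitochondrial were dropped. Scrublet (scanpy 1.11.5) marked only 3 and 7 doublets by its own threshold, so the highest-scoring 98 WT and 73 KO cells, at 0.4% per 1000 barcodes, were left out. Seurat 5.3.0 (R 4.3.3) integrated the libraries by anchors and clustered the cells on 2000 variable features and 30 dimensions at a resolution of 0.8, with cell cycle scores regressed and 52 genes, the Fc receptor lists among them, kept out. Macrophage and monocyte clusters were pooled, integrated and clustered again, as were T cell, NK cell, ILC2 and gamma-delta T cell clusters. This second round took in clusters not of low depth that were left unnamed for markers of another list. For naming, the macrophage and monocyte cells of this round were compared with each other only. A cluster took the name of the marker list with the highest mean log2 ratio to the other cells. It stayed unnamed with under 3 of that list's markers detected, with more markers of another list among its 10 leading genes (macrophage and monocyte lists were not set against each other), or at low depth with none of its own there. Counts were summed per class and library and scaled to 1000000 UMIs of the class (CPM). Differences between the classes named here and those of the study may come from these rebuilt names.

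With 1 library per genotype no test was run. Intervals are 95% Poisson (levels), Clopper-Pearson (shares) or conditional binomial (folds) and cover counting error only, and limits for a count of 0 are 3 UMIs. The text names the 7 members, the genes of the pathway lists that were highest in a class or past the fold, and the 5 genes closest to each member among 10383 with at least 500 UMIs. Some genes that this rule names are not reported here. The members and lists were chosen with earlier results of these data known. The ratio step was tested on simulated data. Alternatives changed the added CPM, the UMI minimum, the cell limits, doublets, features, cell cycle regression, resolution, summary, thinning depth and sex of the cells. Leaving out the shallow non-classical monocyte-like cluster, or the cell with the most UMIs of a gene, was chosen after seeing the data.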

Additional observations from a re-analysis of the deposited data

Results flagged for a closer look

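Fcgr2b in Cd207 Clec4f macrophage-like cells went opposite ways in the sexes, with a log2 ratio of KO over WT of 0.35 among male cells (76.2 CPM in WT and 99.8 in KO) and -2.19 among female cells (175.0 and 30.5). It stands out because it was the member pair past the fold in the pooled cells. The KO values rest on 6 male and 9 female cells with 14 and 6 UMIs, and 1 male cell held 60.0% of all 20. The difference between the sexes was not tested.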

How the results depend on the processing

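All 7 genes led in the same class in both libraries, a count that was 4 among male cells alone and 5 to 7 under the other alternatives run. The count of member pairs past the fold, 1 as reported, was 2 with 1 CPM added, with at least 20 UMIs, without cell cycle regression and without the cell with the most UMIs of the gene, 3 with the stricter cell limits and with doublets kept, 0 among male and 5 among female cells. With the stricter limits no Cd207 Clec4f class was named and the 3 pairs were Fcgr3, Fcer1g and Fcgrt in B cell-like cells. The count of pathway pairs, 1 as reported, was 2 with 1 CPM added, with at least 20 UMIs, with the stricter limits, with doublets kept, without cell cycle regression and among male cells, 3 without the cell with the most UMIs, 6 among female cells and 8 with the mean of per-cell CPM. Fcgr2b in Cd207 Clec4f cells, at -1.62, was 0.35 among male cells, and lay between -2.19 and -1.40 under the other alternatives that gave it. The number of classes with a higher Fcgr2b share in KO was 4 to 7. The cause of these changes was not tested. Of the 56 ratios, 29 lay outside their counting interval among female cells, against at most 14 under the alternatives other than sex. Among male cells 20 did, besides 1 that was counted apart as reversed. The sign was that of the pooled cells in 49 of the 56 ratios among male cells and in 47 among female cells. Halving the thinned depth to 2100 UMIs moved 79 shares of cells with a UMI past their interval and left 27 inside. No paired analysis was possible because each genotype has 1 library. Classes of few cells (16 KO Cd207 Clec4f, 15 KO mast cell- or basophil-like, 43 NK cell-like per library) and pools that mix hearts limit every ratio.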
